A study of Mus musculus with 3 samples.

Results

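The serpins are a superfamily of proteins with one common fold, most of which inhibit serine proteases. The genes described here are those with a mouse symbol made of Serpin, a clade letter from a to i and a number, on an array of the Compugen mouse oligo library. An oligo was counted where the platform table gives it exactly 1 symbol. This gave 32 genes of 20259 in the library, carried by 35 oligos, and 28 of the 32 had a value on all 3 arrays. RefSeq lists 63 protein-coding mouse genes with symbols of this form, and those without such an oligo, among them all of clade e, were not analysed here. The rule used names only, but the family was proposed with results of this comparison known, so the values below are a description and support no claim about the family.

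Each of the 3 arrays set RNA of 13.5 dpc kidney (dpc, days post coitum; channel 1) directly against RNA of 10.5 dpc metanephric mesenchyme (channel 2), both microdissected from CD1 mice of both sexes, pooled, and amplified before labelling. There was no common reference and no treatment or mutant allele. The metanephric mesenchyme is the tissue from which nephrons form, and at the later stage the kidney also holds branching ducts and stroma. The series compares the 2 stages, and each array gives 1 log2 ratio per oligo.

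The sources used here do not say which RNA is the numerator, so each value is read only as above or below 0 (the positive and the negative side) and no tissue is tied to either. Of 11 kidney and mesenchyme markers, 10 had a positive mean (50.3% over all genes). The means ran from -0.19 for Ret to 3.31 for Cdh16, the cadherin of tubules. All 6 red-cell markers had a negative mean (49.7% over all genes). Between 21433 and 21477 oligos had a value per array, and the median log2 ratio of an array lay between 0.0014 and 0.030. Arrays 1 and 2 correlated at r = 0.46 across genes, and array 3 at 0.17 and 0.16 with them. These r are across genes, which are not independent replicates. RNA comes from whole tissue, so fewer cells of a type and less RNA per cell cannot be told apart.

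An inhibitory serpin offers an exposed loop as bait; the protease cuts it and is trapped as the serpin changes shape. Clade a and the single-member clades hold mostly secreted proteins made in quantity by the liver, while clade b serpins stay mainly inside cells. Some members have lost inhibition and carry hormones or help other proteins to fold.

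The serpins with a large ratio and one sign were alpha-1 antitrypsin genes, on the negative side. Of 28 measured genes, 13 had a mean log2 ratio within 0.25 of 0, as had 49.97% of all genes. Of the same 28 measured genes, 20 had a negative mean log2 ratio and 8 a positive one, where 49.7% of all 19635 genes tested had a negative mean. Their median was -0.097, against 0.0020 over all genes. On all 3 arrays 7 were negative (19.9% over all genes) and 2 positive (21.5%), and 19 had mixed signs (58.7%). A mean of at least 1 in size, a 2-fold difference, was found for 4 serpins (5.33% over all genes), 2 of them with mixed signs (0.754%). A mean of that size with one sign on all 3 arrays was found for 2 serpins on the negative side (2.42%) and 0 on the positive side (2.16%). In limma's fit over all genes 0 serpins passed an adjusted p of 0.05 (0.00509% over all genes), with 0.123 the smallest. At an unadjusted p under 0.05 there were 5, all negative (7.83% of all genes were called on the negative side, 8.99% on the positive and 16.8% in all): Serpina1a, Serpina1c, Serpina1d, Serpina1e and Serpinc1. These counts take the related copies Serpina1a to Serpina1e as separate genes. Without them, 15 of 23 serpins had a negative mean and 8 a positive one (49.7% of all genes were negative), with a median of -0.070. Of these 23, 0 had a mean of at least 1 in size with one sign. In limma's fit 1 of them, Serpinc1, had an unadjusted p under 0.05 (16.8% of all genes).

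**Figure D1:**
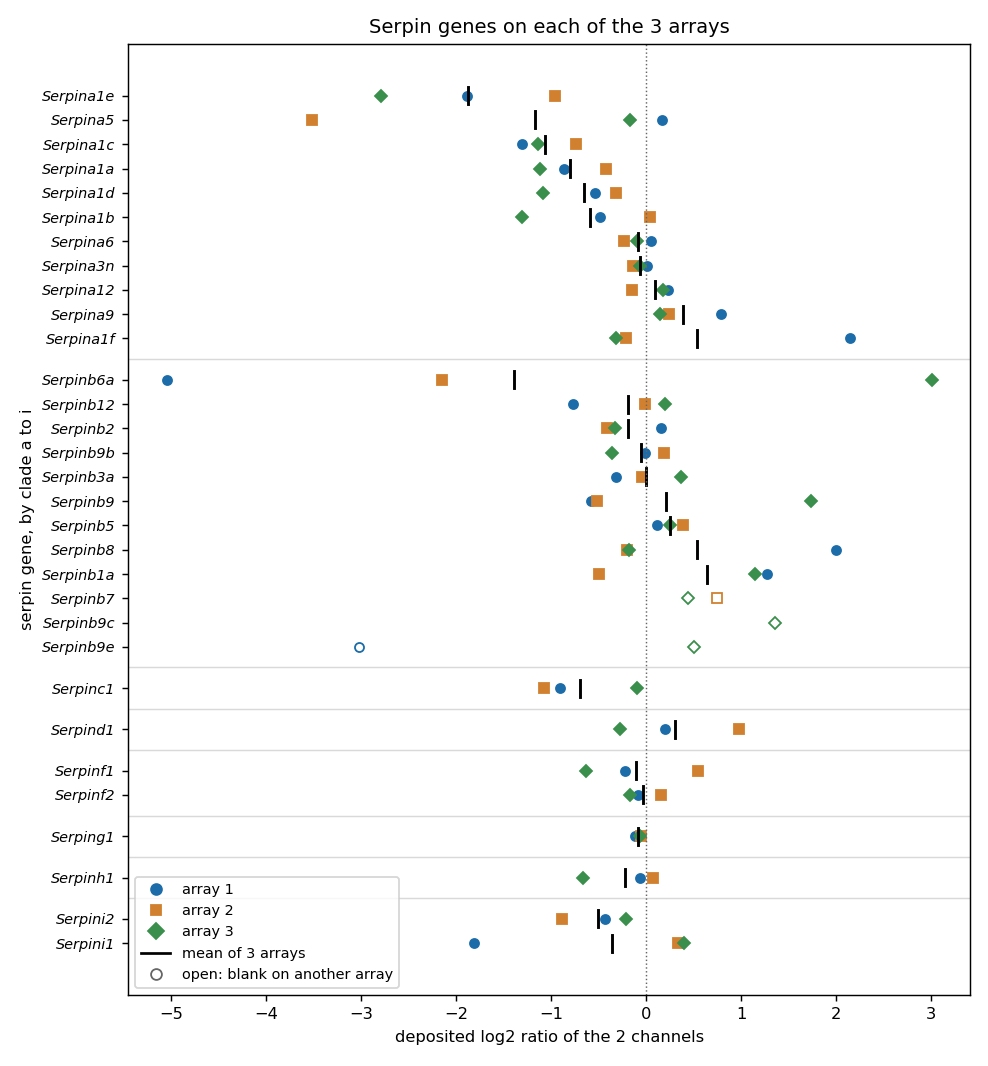
Deposited log2 ratio (x axis) of each serpin gene (y axis, grouped by clade) on arrays 1, 2 and 3, with a bar at the mean of the 3 arrays and open symbols for genes that were blank on another array. Serpina1a to Serpina1e sit left of 0, with means from -1.88 to -0.59, and Serpinb6a spans -5.05 to 3.01.

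The negative side was led by the alpha-1 antitrypsin genes of clade a. Alpha-1 antitrypsin is a secreted inhibitor of neutrophil elastase, made by the liver and early on by the yolk sac, and mice carry several copies of its gene. Serpina1e had log2 ratios of -1.89, -0.96 and -2.80 on arrays 1, 2 and 3, the lowest mean of the family at -1.88 ± 0.92 (SD, n = 3), a 3.68-fold difference. Serpina1c had -1.31, -0.74 and -1.14 (-1.06 ± 0.29, 2.09-fold). These were the 2 serpins past a size of 1 with one sign. Serpina1a lay just outside it, at -0.86, -0.42 and -1.12 (-0.80 ± 0.35). Serpina1d stood at -0.54, -0.32 and -1.09 (-0.65 ± 0.39). Serpina1b had -0.49, 0.038 and -1.31 (-0.59 ± 0.68), and was the one copy with mixed signs.

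All 5 copies were thus negative on arrays 1 and 3, and 4 of the 5 on array 2. Averaged over the copies, the ratios of the 3 arrays were -1.02, -0.48 and -1.49. The order from lowest to highest was Serpina1e, Serpina1c, Serpina1a, Serpina1d, Serpina1b on both array 1 and array 2, while on array 3 Serpina1b came second. Serpina1e was lower than Serpina1b by -1.40, -0.996 and -1.49 on the 3 arrays, a mean difference of -1.29 ± 0.26. It differed from Serpina1c by -0.58, -0.21 and -1.66 (-0.82 ± 0.75), about the spread between arrays. Serpina1d and Serpina1b did not differ beyond their spread (-0.064 ± 0.29). The copies are close relatives and the oligo sequences were not used here, so how far each oligo also reads the other copies was not tested.

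The 5 copies are direct neighbours on the chromosome, with 0 other protein-coding genes between them in RefSeq's gene table. In chromosomal order, Serpina1b, Serpina1d, Serpina1a, Serpina1c and Serpina1e, their means ran from -0.59 to -1.88 without a reversal. On array 3 that order did not hold, since Serpina1b lay below Serpina1d, Serpina1a and Serpina1c. The steps between neighbours were -0.064 ± 0.29, -0.15 ± 0.15, -0.26 ± 0.22 and -0.82 ± 0.75, each within or about its spread. Serpina1f, the neighbour next to Serpina1b, was not part of that run of means. It had 2.14 on array 1 and -0.21 and -0.31 on arrays 2 and 3 (0.54 ± 1.39), and without replicate 1 its mean was -0.26. Beyond Serpina1e the next measured genes were Serpina9 and Serpina12, with positive means of 0.39 and 0.088.

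**Figure D2:**
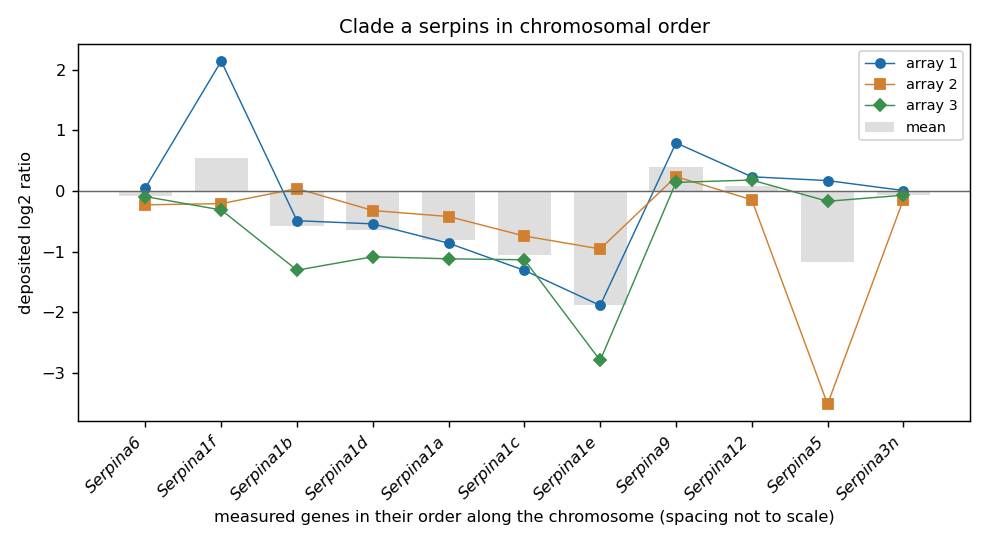
Deposited log2 ratio (y axis) of the 11 measured clade a serpins in chromosomal order (x axis, spacing not to scale) on each array, with grey bars at the mean of 3 arrays. The adjoining genes from Serpina1b to Serpina1e have means from -0.59 to -1.88. Serpina1f and Serpina9, the nearest measured genes on either side, have positive means, but Serpina1f is positive on array 1 only.

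RefSeq promoters (GRCm38.p6) were matched for 28 of the 32 genes. The promoters of the 5 copies are shown because these genes lay on one side together: all hold one identical run of 59 bases, found in 5 of 32851 promoters, those of these genes. The lines give 105 bases from the start of that run, 5′ to 3′ on the minus strand, with capitals at the 7 positions where the copies differ.
Serpina1b, chr12:103738150-103738254: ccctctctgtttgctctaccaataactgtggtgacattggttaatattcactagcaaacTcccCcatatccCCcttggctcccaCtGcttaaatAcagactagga
Serpina1d, chr12:103773584-103773688: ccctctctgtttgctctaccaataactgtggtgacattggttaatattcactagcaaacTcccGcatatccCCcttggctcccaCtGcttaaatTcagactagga
Serpina1a, chr12:103863575-103863679: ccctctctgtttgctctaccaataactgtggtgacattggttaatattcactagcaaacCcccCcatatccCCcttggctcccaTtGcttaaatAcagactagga
Serpina1c, chr12:103904912-103905016: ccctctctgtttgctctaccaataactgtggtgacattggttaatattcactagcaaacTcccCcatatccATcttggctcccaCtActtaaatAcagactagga
Serpina1e, chr12:103956910-103957014: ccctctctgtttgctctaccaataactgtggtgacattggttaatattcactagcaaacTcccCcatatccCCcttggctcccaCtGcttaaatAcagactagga

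Serpina1b and Serpina1e were identical over these 105 bases. Their mean ratios were the highest and the lowest of the copies, but on array 3 Serpina1b was the second lowest. Whether promoter sequence bears on the ratios was not tested. Serpina1c differed from Serpina1a and from Serpina1d at 5 positions, the most of any pair. Counted from the annotated gene start, the shared run begins at positions -66 to -55 in Serpina1a to Serpina1d and at -117 in Serpina1e.

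Within the run lies GTTAAT, one arm of the palindrome GTTAATNATTAAC bound by hepatocyte nuclear factor HNF1, a factor of liver and kidney epithelium. Searched on both strands, the 6 letters were in 7.10% of all promoters and in 7 of 32 serpin promoters: those of the 5 copies, Serpinb8 and Serpini2. The 5 copies hold the letters within the run they share, so they are not separate matches. Whether serpin promoters hold the letters more often than others was not tested. The full palindrome was in 3 promoters overall and in 0 of the serpins. The promoter of Serpina1e is given whole with the 6 letters in capitals, and that of Serpina1f, the neighbour with mixed signs, beside it; no capitals appear there because the letters are not in that window.
Serpina1e, chr12:103956848-103957147, minus strand: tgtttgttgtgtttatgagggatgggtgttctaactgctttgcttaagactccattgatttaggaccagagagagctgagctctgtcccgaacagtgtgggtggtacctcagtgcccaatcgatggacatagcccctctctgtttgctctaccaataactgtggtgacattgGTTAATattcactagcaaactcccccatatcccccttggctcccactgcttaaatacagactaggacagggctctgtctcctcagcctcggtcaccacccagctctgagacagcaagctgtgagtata
Serpina1f, chr12:103695480-103695779, minus strand: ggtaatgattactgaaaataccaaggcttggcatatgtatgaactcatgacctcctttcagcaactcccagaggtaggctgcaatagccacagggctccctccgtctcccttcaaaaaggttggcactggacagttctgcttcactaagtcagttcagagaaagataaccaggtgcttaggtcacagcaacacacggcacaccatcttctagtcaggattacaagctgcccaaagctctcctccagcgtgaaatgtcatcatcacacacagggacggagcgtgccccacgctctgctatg
A match describes these letters only and is not a measured binding site.

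Genes of liver and yolk sac stood on both sides. Of 11 measured, 6 had a negative mean and 5 a positive one (49.7% and 50.3% of all genes), with a median of -0.13. On all 3 arrays 5 were negative and 2 positive, where 19.9% and 21.5% of all genes were. In limma's fit 0 passed an adjusted p of 0.05. At an unadjusted p under 0.05 there were 5 negative and 1 positive (7.83% and 8.99% of all genes). A mean of at least 1 in size with one sign was found for 3 on the negative side and 0 on the positive (2.42% and 2.16% of all genes). Ttr, which encodes the carrier transthyretin, was furthest on the negative side at -3.38, -1.81 and -1.54 (-2.24 ± 1.00). Afp, alpha-fetoprotein of fetal liver and yolk sac, had -1.47, -1.30 and -1.56 (-1.44 ± 0.13), and Apoa1, an apolipoprotein, stood at -1.14 ± 0.23. Both were negative on every array, as were 4 of the 5 antitrypsin genes. Alb, which encodes albumin, was furthest on the positive side, with 1.20, 0.22 and 1.21 (0.87 ± 0.57). Of 6 red-cell markers, 5 were negative on all 3 arrays (19.9% of all genes) and 1, Hbb-y, had mixed signs (58.7%). Their means ran from -3.95 ± 0.32 for Hbb-bh1 to -0.062 ± 0.26 for Hbb-y, both globins, with a median of -1.90. Hba-x, another globin, stood at -0.21 ± 0.15. The part of liver, yolk sac or blood RNA in the values of the antitrypsin genes was not tested.

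**Figure D3:**
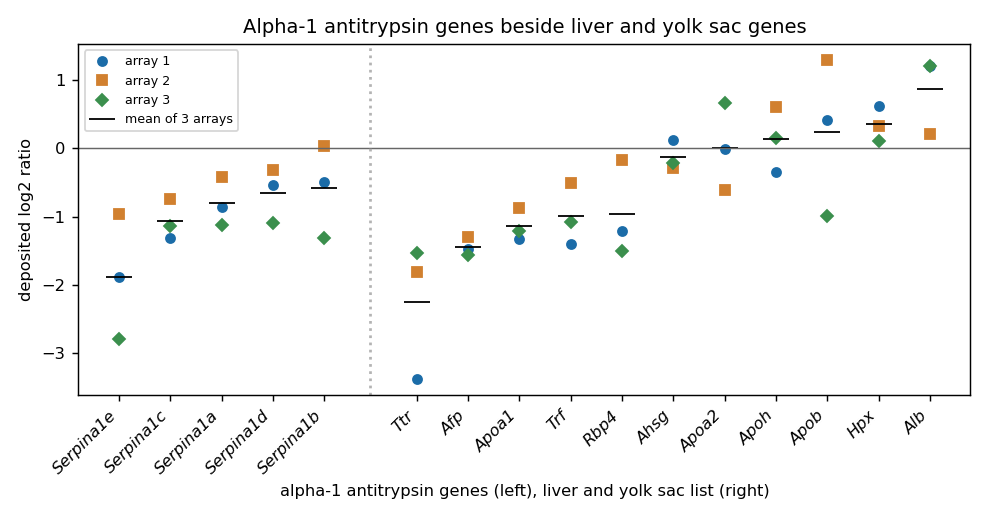
Deposited log2 ratio (y axis) on each array of the 5 alpha-1 antitrypsin genes (left) and of 11 liver and yolk sac genes (right), with a bar at the mean of 3 arrays. The antitrypsin genes all have negative means, and the liver and yolk sac genes range from -2.24 for Ttr to 0.87 for Alb.

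The other clade a serpins were centred on 0, with a median of 0.0092 over 6 genes, against -0.80 for the 5 antitrypsin copies. Serpina5, the protein C inhibitor, had 0.17, -3.52 and -0.17 on the 3 arrays. Its mean of -1.17 ± 2.04 came from array 2, and without replicate 2 the mean was -0.00072. The hormone carrier Serpina6, corticosteroid-binding globulin, stood at -0.091 ± 0.14. Serpina3n, of the antichymotrypsin group, stood at -0.070 ± 0.075, and Serpina12, vaspin, at 0.088 ± 0.21. Serpina9, known from germinal-centre B cells, was positive on all 3 arrays at 0.79, 0.24 and 0.14 (0.39 ± 0.35). Over clade a as a whole the median was -0.59, or -0.033 without replicate 2 and -0.23 without replicate 3.

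Clade b, the intracellular serpins, had a median of -0.00081 over 9 measured genes, 4 with a positive mean (50.3% of all genes). Mixed signs were found in 8 of the 9, against 58.7% of all genes. Its lowest member was Serpinb6a, whose relatives inhibit cathepsin G, with -5.05, -2.15 and 3.01 on arrays 1, 2 and 3. The arrays thus lay on opposite sides, and the SD of 4.08 ranked 2 from the highest among 19635 genes. The mean of -1.40 was 0.43 without replicate 1 and -3.60 without replicate 3, so it gives no direction. The highest member was Serpinb1a, an inhibitor of neutrophil elastase, with 1.27, -0.50 and 1.14 (0.64 ± 0.99), where array 2 lay on the other side.

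In 2 more clade b genes a single array stood apart. Serpinb8, an inhibitor of furin, had 1.99 on array 1 against -0.20 and -0.19 on arrays 2 and 3 (0.54 ± 1.26). Serpinb9, which protects cells from granzyme B, had 1.74 on array 3 against -0.58 and -0.52 on arrays 1 and 2 (0.21 ± 1.32). Serpinb5, maspin, an epithelial serpin without protease inhibition, was the one clade b gene with one sign, at 0.11, 0.38 and 0.25 (0.25 ± 0.14). Serpinb12, Serpinb9b and Serpinb3a, the last of the squamous cell carcinoma antigen group, had means between -0.20 and -0.00081.

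Serpinb2, a plasminogen activator inhibitor, had 3 oligos that did not agree in sign. One oligo had 0.019, -0.013 and -1.37 (mean -0.45), another -1.01, -0.54 and -0.30 (-0.62), and the other 1.46, -0.68 and 0.68 (0.49). Averaged, the gene stood at -0.19 ± 0.31. Surface epithelium, where several clade b serpins are known, gave 5 measured markers with a median of -0.46. Of these, 3 had a negative mean (49.7% of all genes). They ran from -1.32 ± 1.16 for Krt5 to 0.19 ± 0.16 for Epcam. The part of surface epithelium in the clade b values was not tested.

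Of the 4 serpins without a value on all arrays, all were in clade b, and they made up 12.5% of the family, where 3.08% of library genes lacked such a value. Serpinb7, megsin, known from kidney mesangial cells, had 0.74 and 0.44 on arrays 2 and 3 and was blank on array 1. Serpinb9e had -3.02 on array 1 and 0.50 on array 3. Serpinb9c had 1.35 on array 3 alone, and Serpinb11 was blank on all 3. None of these entered the counts over measured genes above.

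**Figure D4:**
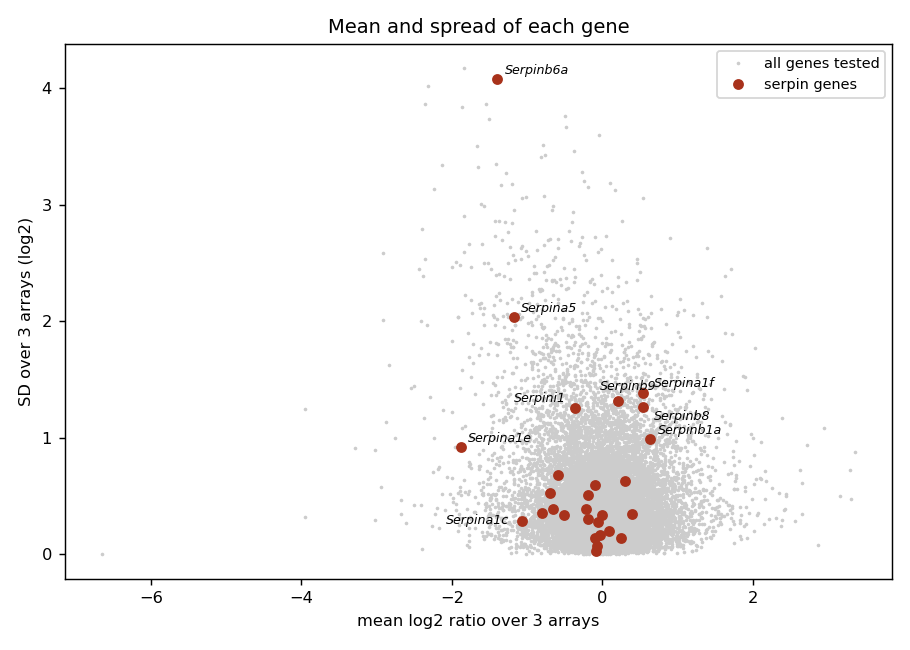
Mean log2 ratio over 3 arrays (x axis) and SD over the same arrays (y axis, log2) for all 19635 genes tested (grey) and 28 serpins (red). Serpinb6a has an SD of 4.08 and Serpina5 of 2.04, while Serpina1e has the lowest mean at an SD of 0.92.

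Spread between arrays was wide in several serpins. The SD was over 1 in 6 of 28 serpins, against 8.52% of all genes, and the median SD was 0.39, against 0.32. Those 6 were Serpinb6a, Serpina5, Serpina1f, Serpinb9, Serpinb8 and Serpini1, and the signs of their arrays were mixed. Serping1 lay at the other end with an SD of 0.033.

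The single genes of clades c and d are heparin-dependent inhibitors of clotting. Their means had opposite signs, but that of Serpind1 gives no firm side. Serpinc1, antithrombin, the main inhibitor of thrombin in plasma, had -0.91, -1.08 and -0.099 (-0.70 ± 0.53, a 1.62-fold difference). All 3 arrays were negative, with array 3 near 0. Serpind1, heparin cofactor II, which also inhibits thrombin, had 0.20, 0.98 and -0.27 (0.30 ± 0.63), with mixed signs. Without replicate 2 its mean was -0.037.

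Genes of coagulation and plasminogen activation went both ways. Of 17 measured, 5 had a positive and 12 a negative mean, where 49.7% of all genes had a negative one, and the median was -0.22. On all 3 arrays 3 were positive and 3 negative, where 21.5% and 19.9% of all genes were. F3, tissue factor, the trigger of clotting, was furthest out on the positive side at 2.57, 0.43 and 2.08 (1.69 ± 1.12). Fgg, the fibrinogen gamma chain, was furthest on the negative side at -0.24, -0.42 and -0.91 (-0.52 ± 0.35). F2, prothrombin, the target of Serpinc1 and Serpind1, stood at 0.35 ± 0.29, and limma passed 0 of the 17 at an adjusted p of 0.05, with 2, both positive, at an unadjusted p under 0.05 (16.8% of all genes on either side).

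Clade f lay near 0. Serpinf1, pigment epithelium-derived factor, a secreted protein that restrains vessel growth and inhibits no protease, had -0.22, 0.54 and -0.63 (-0.10 ± 0.60). Serpinf2, the plasmin inhibitor antiplasmin, had -0.088, 0.16 and -0.17 (-0.032 ± 0.17). In both genes array 2 was positive and the others negative. Plg, which encodes plasminogen, had -0.057, 0.71 and -0.98, and its activators Plat and Plau stood at -0.15 ± 0.17 and -0.15 ± 0.15.

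Serping1, the single member of clade g, inhibits the first complement proteases and kallikrein. It had -0.12, -0.060 and -0.068 on the 3 arrays (-0.083 ± 0.033), so its ratio was small and nearly the same on each. Among its targets, C1ra stood at -0.072 ± 0.094 and Klkb1 at 0.14 ± 0.20.

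Serpinh1, the single member of clade h, is a chaperone of the endoplasmic reticulum that binds folding procollagen and inhibits no protease. Its 2 oligos differed. One had -0.28, 0.057 and -1.56 (-0.59 ± 0.85), and the other 0.13, 0.094 and 0.23 (0.15 ± 0.072). The first gave mixed signs with array 3 apart, and the second was positive on every array. Averaged, the gene had -0.071, 0.075 and -0.66 (-0.22 ± 0.39), and without replicate 3 its mean was 0.0020.

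Genes of collagen synthesis and folding lay mostly on the positive side. Of 19 measured, 14 had a positive mean (50.3% over all genes) and 5 a negative one, the median was 0.32, and 11 were positive on all 3 arrays (21.5%). Sparc, a collagen-binding glycoprotein, was furthest out at 1.97, 1.46 and 1.35 (1.59 ± 0.33), and Ppib, a prolyl isomerase of the same compartment as Serpinh1, was lowest at -0.52, -0.58 and -0.14 (-0.41 ± 0.24). Limma passed 0 of the 19 at an adjusted p of 0.05, and 6, all positive, had an unadjusted p under 0.05 (8.99% of all genes on the positive side).

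**Figure D5:**
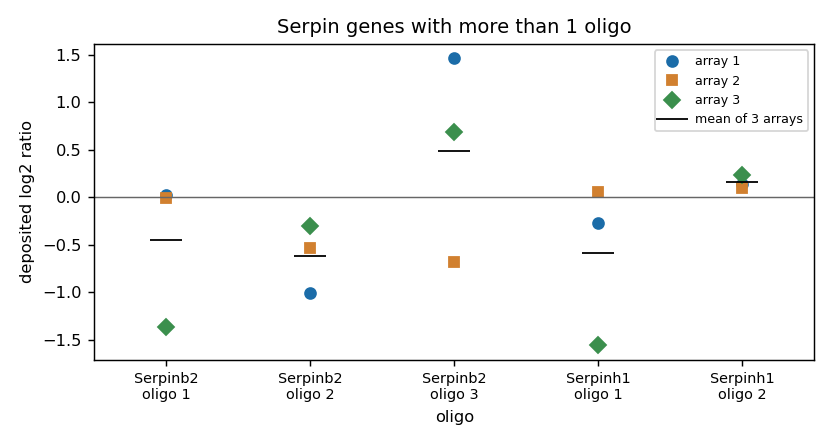
Deposited log2 ratio (y axis) of each oligo (x axis) of the 2 serpins with more than 1 oligo, on arrays 1, 2 and 3, with a bar at the mean. Oligo means run from -0.62 to 0.49 for Serpinb2 and from -0.59 to 0.15 for Serpinh1.

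Both clade i genes had negative means. Serpini2, a serpin of the pancreas, was negative on all 3 arrays at -0.44, -0.88 and -0.21 (-0.51 ± 0.34). Serpini1, neuroserpin, the neuronal inhibitor of tissue plasminogen activator, had -1.82 on array 1 against 0.34 and 0.39 on arrays 2 and 3 (-0.36 ± 1.26), and without replicate 1 its mean was 0.37. Of 8 neural markers, 5 had a negative mean and 3 a positive one (49.7% and 50.3% of all genes). They ran from -1.71 ± 0.37 for Isl1 to 1.01 ± 0.61 for Dcx.

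Protease inhibitors of other families lay more often on the positive side. Of 26 measured, 19 had a positive and 7 a negative mean, with a median of 0.19, where 50.3% of all genes had a positive mean. Wfdc2, a secreted whey acidic protein-type inhibitor of epithelia, was furthest out at 2.31, 1.77 and 1.19 (1.76 ± 0.56). Spink2, a Kazal-type inhibitor, was lowest at -1.37, -0.82 and -0.59 (-0.93 ± 0.40). Limma passed 0 of the 26 at an adjusted p of 0.05, and 5 had an unadjusted p under 0.05, of which 4 were positive, where 16.8% of all genes had such a p.

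Proteases that serpins can inhibit were near 0 as a list. Of 21 measured, 11 had a positive and 10 a negative mean (50.3% and 49.7% of all genes), and the median was 0.041. Ctsg, cathepsin G of neutrophils, was lowest at -0.81, -0.59 and -0.78 (-0.73 ± 0.12). Elane, neutrophil elastase, the classic target of alpha-1 antitrypsin, was positive on all 3 arrays at 0.48, 0.51 and 0.066 (0.35 ± 0.25). The highest was Ctss, a cathepsin of leukocytes, at 0.45 ± 0.29. Limma passed 0 of the 21 at an adjusted p of 0.05, and 1, Ctsg, had an unadjusted p under 0.05, where 16.8% of all genes had one. Of 8 leukocyte markers measured, 5 had a positive and 3 a negative mean (50.3% and 49.7% of all genes). They ran from -0.80 ± 0.24 for Itgam to 0.67 ± 0.46 for Fcer1g, with a median of 0.22. Of 5 endothelial markers, 1 had a positive and 4 a negative mean (50.3% and 49.7% of all genes). They ran from -0.86 ± 0.47 for Cd34, negative on all 3 arrays, to 0.33 ± 0.57 for Pecam1, with a median of -0.025.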

How the data were processed

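Per the labels, the images were read with ImaGene 5.5 and the ratios were normalized in R by print-tip loess and then between arrays. The labels also describe a lowess curve with 20% of the data at each point, and control values under 10 raised to 10. The deposited table holds 1 log2 ratio per oligo and array, and its log base was read from the values. The numerator, the dye of each RNA and the genome build are not given in the sources used here. Neither are the order of the steps and whether a dye-swapped array was turned. In the values, 10 of 11 kidney and mesenchyme markers were positive on all 3 arrays (21.5% of all genes). Of 6 red-cell markers, 5 were negative on all 3 (19.9%), so most of these markers kept one side across the arrays. Spot intensities were not used here.

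Of 22702 spots, 883 were no library oligo and were left out. Oligos with 1 symbol in the platform table were averaged by symbol, and the others kept their own identifier. A value on all 3 arrays was required. The 19635 genes were fitted together in limma 3.58.1 (R 4.3.3, intercept only, eBayes, two-sided, Benjamini-Hochberg). The code was checked on simulated independent values with known shifts, which does not show how well the fit suits these arrays. Members and gene lists were chosen with earlier results of these data known. Nothing in the labels tells separate tissue pools from repeat hybridisations, so a p-value reflects only how these 3 arrays vary, and that variation may be technical. Every serpin is accounted for. Those with a mean of at least 1 in size and one sign, and the highest and lowest of each clade, are given array by array. List genes are given as counts, with the member furthest from 0 on each side. Promoters are those of RefSeq (GRCm38.p6), from 250 bases before to 50 after a gene's start. Their coordinates are not those of the array. Gene copies, their order and promoter sequences are those of the reference genome, and the CD1 mice were not compared with it. The alternatives left out each array in turn, admitted genes on at least 2 arrays, kept oligos apart or took their median, took the median of the 3 arrays, centred or scaled the arrays, left out the lowest ratios, and changed the limma fit.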

Additional observations from a re-analysis of the deposited data

How the results depend on the processing

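With 1 array left out, the count of genes past limma's adjusted p of 0.05 over the whole table was 0 in each of the 3 fits, against 1 with all arrays, with 1678 to 3913 genes at an unadjusted p under 0.05. The count was also 0 with the arrays scaled to one median absolute deviation (3359 genes at an unadjusted p under 0.05) and with the oligos at the lowest ratio left out (3307). The 1 gene called is no serpin and has that ratio. Over the 10 alternative fits that kept serpins by symbol, 0 serpins passed and 2 to 7 had an unadjusted p under 0.05. The median of clade a ranged from -0.63 to -0.033 with 1 array left out, and its lowest size came without replicate 2. The median over the serpins stayed between -0.11 and -0.091 in the 9 alternatives that gave one. Of the 28 serpins, 16 kept the sign of their mean with each array left out and 12 did not. The 16 include Serpina5, whose mean without replicate 2 was -0.00072. The share over all genes was not computed, so this count does not set the family apart. Centring, scaling and the median of the oligos of a symbol turned the sign of 0 serpins. Only Serpinb2 and Serpinh1 have more than 1 oligo, and their single oligos differed in sign. Keeping oligos apart could not turn a sign, because the oligos of a symbol were averaged again to give its value. No serpin oligo held the lowest ratio, so leaving out that ratio could not change a serpin. The median of the 3 arrays in place of their mean turned 4: Serpina1f, Serpinb8, Serpinb9 and Serpini1. The number of arrays limits these values, and signal over background was not analysed here. No paired analysis was possible because the arrays form 1 group, so no replicate number is shared between groups. The contrast of the tissues within each array is already in its ratio.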

Other observations

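The clade b genes lie in a pair of chromosomal clusters and had means on both sides of 0 in each. In the first, in chromosomal order, the measured genes Serpinb5, Serpinb12, Serpinb3a, Serpinb2 and Serpinb8 had mean log2 ratios of 0.25, -0.20, -0.00081, -0.19 and 0.54. In the second, Serpinb1a, Serpinb9, Serpinb9b and Serpinb6a had means of 0.64, 0.21, -0.059 and -1.40, and the SD of Serpinb6a was 4.08. Serpini2 and Serpini1, near neighbours with 2 protein-coding genes between them, had means of -0.51 and -0.36. Serpinf1 and Serpinf2, direct neighbours, stood at -0.10 and -0.032.

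Agreement between the arrays was given as counts of signs. Arrays 1 and 2 shared a sign for 14 of the 28 serpins, where 69.8% of all genes did. Arrays 1 and 3 shared one for 16 serpins, against 57.2% of all genes, and arrays 2 and 3 for 16, against 55.7%.

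Agt, which encodes angiotensinogen, a clade a serpin that does not inhibit proteases and carries another symbol, had 0.091, -0.15 and 0.027 on arrays 1, 2 and 3 (mean -0.011 ± 0.13, SD, n = 3).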
